A study of Homo sapiens with 6 samples.

Results

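The gelsolin family is a group of actin-binding proteins built from repeated gelsolin-like domains. Of its human members, 7 were followed here by name, SCIN, GSN, VIL1, AVIL, CAPG, FLII and SVIL, out of 60675 genes in the count table. SCIN was selected on its counts, which were lower in the libraries labelled knockdown, and led to the choice of this family. Its difference between the groups is therefore given as a description with no test. The other 6 belong to the family by name.

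The data are RNA sequencing counts from HEK293, a line derived from human embryonic kidney cells. The 3 libraries labelled MOCS2 knockdown came from cells in which RNA interference was directed at MOCS2, which encodes subunits of the enzyme that makes molybdopterin, part of the molybdenum cofactor. The 3 control libraries came from HEK293 cells whose genotype is labelled wild type. Both groups were grown in high-glucose DMEM with fetal bovine serum and Geneticin, an antibiotic used to keep cells that carry a resistance gene. The labels give neither the RNAi sequence nor the number of clones, and they do not call the replicates separate cultures. The p-values therefore reflect how far these samples scatter, and that scatter may be technical.

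The RNA of the targeted gene showed no decrease under the knockdown label. MOCS2 lies at chr5:53095679-53110063 on the minus strand. It had 69.8, 58.9 and 59.9 CPM (counts scaled to library size) in knockdown replicates 1, 2 and 3, against 57.8, 66.6 and 65.6 CPM in the controls. These values overlap, and the log2 fold change was -0.01 with a 95% interval of -0.33 to 0.31 (adjusted p = 0.976, edgeR). The groups are therefore named by their labels throughout. Reads in genes numbered 17958632 to 19362299 per knockdown library and 19895547 to 22171106 per control library. All 8 HEK293 markers checked, among them KRT8, KRT18, VIM and PAX2, were above 3 reads in each library. This bar is low, since PAX2 had only 16 to 36 reads and the macrophage markers CD14 and LYZ passed it too. It therefore does not establish the identity of the cells. Knockdown replicate 2 stood apart, since 37.5% of its uniquely aligned reads fell outside genes, where the remaining 5 libraries had 21.5% to 24.9%.

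Cells constantly take apart and rebuild filaments of actin. Gelsolin is the textbook severing protein. On binding calcium it cuts a filament and stays on the fast-growing barbed end as a cap, which phosphoinositide lipids of the membrane can remove. The relatives of gelsolin keep different parts of this activity. SCIN, called scinderin or adseverin, severs and caps and is known from secretory cells such as chromaffin cells. CAPG caps barbed ends without severing and is abundant in macrophages. VIL1 (villin) bundles the filaments of intestinal microvilli and can also sever them, and AVIL (advillin) is known from sensory neurons. FLII (flightless I) carries leucine-rich repeats and also acts with nuclear receptors. SVIL (supervillin) links actin and myosin II to the membrane, with a long isoform in muscle. Severing is thus not a property of every member, CAPG being an example without it.

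The start sites of the family were read from RefSeq promoter windows, each of 300 bases with 250 before and 50 after an annotated start (GRCh38.p14). The table gave 17 windows for 6 of the 7 members, of which 6 belong to GSN, 4 to CAPG and 4 to SVIL. Counts per gene do not show which of several starts was used. The 4 stretches printed below are the 100 bases before the start for the members with the largest differences between the groups, each from a window that holds a rarer motif. SCIN is at chr7:12570620-12570719 on the plus strand, the third GSN window at chr9:121286005-121286104 on the plus strand, the first CAPG window at chr2:85414017-85414116 on the minus strand and the second SVIL window at chr10:29634972-29635071 on the minus strand. Capitals mark a TATA box, an AP-1 site or a CArG box.
SCIN: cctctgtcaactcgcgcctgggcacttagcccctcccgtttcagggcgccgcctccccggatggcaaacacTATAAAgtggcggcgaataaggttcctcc
GSN: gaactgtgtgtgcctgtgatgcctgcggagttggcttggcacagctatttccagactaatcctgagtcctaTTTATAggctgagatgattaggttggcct
CAPG: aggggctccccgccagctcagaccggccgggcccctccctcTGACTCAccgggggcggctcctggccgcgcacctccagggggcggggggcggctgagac
SVIL: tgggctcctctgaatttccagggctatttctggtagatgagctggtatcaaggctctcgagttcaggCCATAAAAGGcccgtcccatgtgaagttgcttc

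The 4 motifs were searched on both strands, and no match overlapped a match of another motif. These were the TATA box TATAAA, found in 11.5% of all 35116 windows, the GC box GGGCGG in 45%, the AP-1 site TGANTCA in 7.71%, and the CArG box, the site of serum response factor, in 1.29%. The SCIN window had TATAAA 29 bases before the start, capitalised above, and again 214 bases before it, with no GC box. The third GSN window had TATAAA at the same distance of 29 bases but on the opposite strand, where it reads TTTATA. The first 2 GSN windows held 3 and 7 GC boxes and no TATAAA. CAPG had an AP-1 site 59 bases before its first start and 3 GC boxes in that window. Of the 4 SVIL windows, only the second had a CArG box, 33 bases before the start, while the single FLII window had 2 GC boxes and the single AVIL window none of the motifs. The last 2 SVIL windows overlap and hold the same AP-1 site, 27 bases after the third start and 96 bases before the fourth. These matches describe the letters of each window and were not tied to the counts.

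SCIN was the member with the largest difference, as its selection ensured. The gene lies at chr7:12570577-12660179 on the plus strand (hg38; ENSG00000006747). SCIN had 126, 175 and 168 reads in knockdown replicates 1, 2 and 3, against 510, 675 and 390 reads in control replicates 1, 2 and 3. After scaling, its level was 7.13, 9.30 and 8.86 CPM in the libraries labelled knockdown and 22.9, 30.3 and 19.6 CPM in the controls. The highest knockdown value was below the lowest control value, and control 2 was the highest library. The means were 8.43 ± 1.15 CPM in knockdown and 24.3 ± 5.47 CPM in control libraries (SD, n = 3 each), a log2 fold change of -1.53 (SE 0.215) or 0.347 of the control level. Leaving out single libraries moved this log2 fold change between -1.67 and -1.34. Of the tested genes, 101 (0.553%) had a lower log2 fold change. In bulk RNA, fewer cells of a type and less RNA per cell cannot be told apart.

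GSN, the founding member, was also lower in each library labelled knockdown than in any control. GSN lies at chr9:121207794-121332843 on the plus strand (ENSG00000148180) and gives both cytoplasmic and secreted gelsolin from different starts. It had 12.3, 14.9 and 15.3 CPM in the knockdown libraries, against 21.5, 23.3 and 33.0 CPM in the controls. The groups did not overlap, and control 3 was highest here, whereas control 2 was highest for SCIN. The means were 14.2 ± 1.65 CPM in knockdown and 25.9 ± 6.21 CPM in control libraries (SD, n = 3 each). The log2 fold change was -0.87 (SE 0.20, 95% interval -1.32 to -0.42), or 0.547 of the control level. It missed the threshold of 0.05 with an adjusted p of 0.0914 by edgeR's quasi-likelihood test. That test called 0 of 18267 genes (0%) in either direction, while 3746 (20.5%) had an unadjusted p under 0.05, DESeq2 called 1145 and limma voom 0.

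For GSN the call depended on the test, the filter and 1 library. DESeq2 gave an adjusted p of 0.00752, in a table where it called 6.27% of genes. Without a filter on low counts edgeR gave 0.00327. Without knockdown replicate 3, edgeR gave an adjusted p of 0.0187, where it called 14.8% of genes. The GSN log2 fold change stayed between -0.99 and -0.67 when single libraries were left out.

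CAPG, the capping protein that does not sever, was low but measurable. CAPG lies at chr2:85394748-85418432 on the minus strand (ENSG00000042493) and overlaps no other annotated gene. It had 22, 32 and 24 reads in knockdown replicates 1, 2 and 3, against 56, 59 and 66 reads in the controls. This gave 1.24, 1.70 and 1.27 CPM in knockdown libraries and 2.52, 2.65 and 3.32 CPM in control libraries, with no overlap. The log2 fold change was -1.01 (SE 0.30, 95% interval -1.67 to -0.35), or 0.498 of the control level. It did not pass the threshold (adjusted p = 0.120, edgeR), nor with DESeq2 (adjusted p = 0.0754).

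SVIL, the membrane-linked member, had values on the other side. SVIL lies at chr10:29457338-29736781 on the minus strand (ENSG00000197321). Its level was 136.0, 162.7 and 102.6 CPM in knockdown replicates 1, 2 and 3, against 89.9, 91.7 and 102.5 CPM in the controls. Each knockdown value was above each control value, but knockdown 3 and control 3 were nearly equal. The log2 fold change was 0.50 (SE 0.18, 95% interval 0.10 to 0.90), 1.41 times the control level, with an adjusted p of 0.162 (edgeR). Without knockdown replicate 3 it was 0.65 with an adjusted p of 0.0173 (edgeR), in a fit that called 14.8% of all tested genes. Without knockdown replicate 2 the log2 fold change was 0.32 with an adjusted p of 0.242 (edgeR).

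AVIL was near the limit of what this depth can show. AVIL lies at chr12:57797376-57818704 on the minus strand (ENSG00000135407). It had 23, 28 and 26 reads in the knockdown libraries, against 23, 21 and 21 reads in the controls, or 1.30, 1.49 and 1.37 CPM in knockdown libraries against 1.03, 0.943 and 1.06 CPM in controls. The scaled values did not overlap, although knockdown 1 and control 1 had equal reads. The log2 fold change of 0.45 had a 95% interval of -0.22 to 1.13 (adjusted p = 0.421, edgeR).

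FLII was the most abundant member and, of the 6 tested, varied most among the libraries labelled knockdown. FLII lies at chr17:18244836-18258916 on the minus strand (ENSG00000177731). Its level was 191.4, 117.9 and 291.1 CPM in knockdown replicates 1, 2 and 3, against 248.6, 216.7 and 235.2 CPM in the controls. Knockdown 2 was the lowest and knockdown 3 the highest of all 6 libraries, so the groups overlapped. The SD was 86.9 CPM among the knockdown libraries and 16.0 CPM among the controls. The log2 fold change of -0.22 had a 95% interval of -0.81 to 0.37 (adjusted p = 0.668, edgeR). It was 0.04 without knockdown replicate 2 and -0.60 without knockdown replicate 3. Knockdown 2 is the library with 37.5% of reads outside genes, and the part of this in the FLII value was not tested.

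VIL1, the intestinal member, was at the floor of detection. VIL1 lies at chr2:218419092-218453295 on the plus strand (ENSG00000127831). It had 2, 12 and 5 reads in knockdown replicates 1, 2 and 3, against 2, 2 and 9 reads in the controls. A count of 3 reads corresponds to 0.158 to 0.170 CPM in the knockdown libraries and 0.135 to 0.151 CPM in the controls, a limit that covers counting error only. Of the 6 libraries, 3 lay below this. VIL1 did not pass the filter on low counts, and no fold change is given. VILL, the villin-like relative, had 1, 8 and 7 reads in the knockdown libraries against 6, 4 and 9 in the controls and was not tested either.

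**Figure D1:**
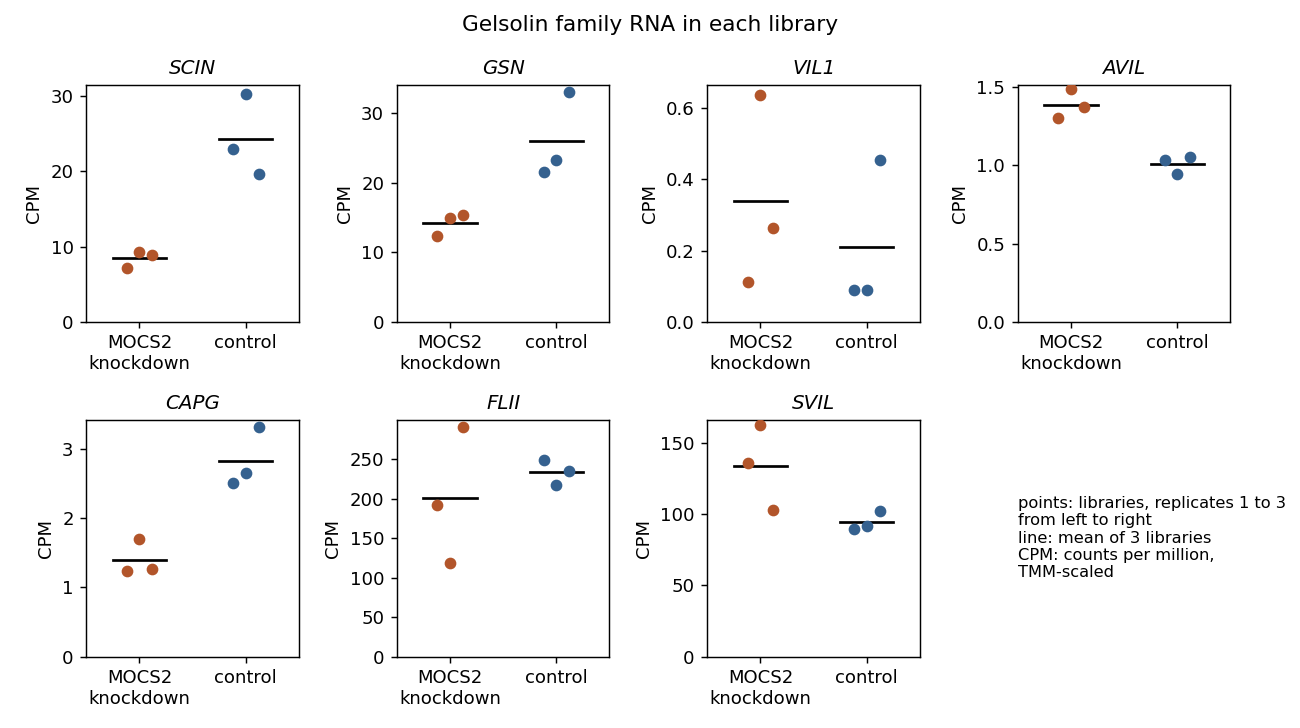
TMM-scaled CPM (vertical axes, each with its own scale from 0) of the 7 members, with 1 point per library, knockdown on the left and control on the right, and lines at group means. SCIN, GSN and CAPG separate with knockdown below control, SVIL and AVIL separate with knockdown above control, and FLII ranges from 117.9 to 291.1 CPM within the knockdown libraries.

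Counted over the family, 6 of 7 members were tested, each with at least 21 reads in every library. Of the 5 other than SCIN, 0 passed the adjusted threshold. At an unadjusted p under 0.05 (edgeR), 2 of the 5 were lower, GSN and CAPG, where 10.6% of all tested genes were lower. SVIL was the 1 of 5 that was higher, where 9.93% of all tested genes were higher. Both GSN and CAPG had all knockdown libraries below all controls, as did 14.3% of all tested genes. SVIL and AVIL had them above, as did 12.5% of all tested genes. With 5 members these counts do not set the family apart from other genes, and 3 against 3 libraries cannot give an exact permutation p under 0.1.

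**Figure D2:**
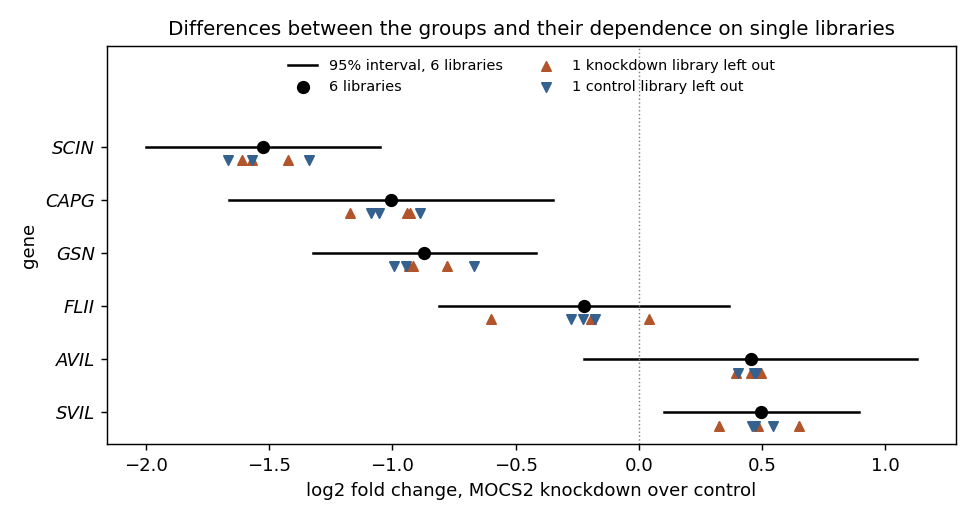
Log2 fold change of the 6 tested members (horizontal axis, knockdown over control), with the 95% interval derived from the edgeR test as a line. Triangles below it show the value when 1 knockdown or 1 control library is left out. The triangles of SCIN, CAPG and GSN all lie below 0 and those of AVIL and SVIL above it, while FLII runs from -0.60 to 0.04. The interval of SCIN comes from the same fit. SCIN was selected on this contrast, so the place of its interval relative to 0 is no test.

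Levels of different genes were compared per length, as CPM per kb of exon. In the libraries labelled knockdown the order of the means was FLII (31.0 ± 13.4), SVIL (13.5 ± 3.03), GSN (1.29 ± 0.15), SCIN (0.725 ± 0.099), CAPG (0.538 ± 0.099), AVIL (0.236 ± 0.016) and VIL1 (0.049 ± 0.039). The controls had the same order, with FLII at 36.1 ± 2.48, SVIL at 9.53 ± 0.69, GSN at 2.35 ± 0.56, SCIN at 2.09 ± 0.47, CAPG at 1.08 ± 0.17, AVIL at 0.172 ± 0.010 and VIL1 at 0.030 ± 0.030 CPM per kb (SD, n = 3 each). Most of the family's RNA in these cells was thus FLII and SVIL. Neighbours whose ranges overlapped were SCIN and CAPG in the knockdown libraries, and GSN and SCIN in the controls. Divided by the longest transcript in place of all exons, CAPG stood above SCIN in the knockdown libraries, at 0.973 against 0.868 CPM per kb.

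**Figure D3:**
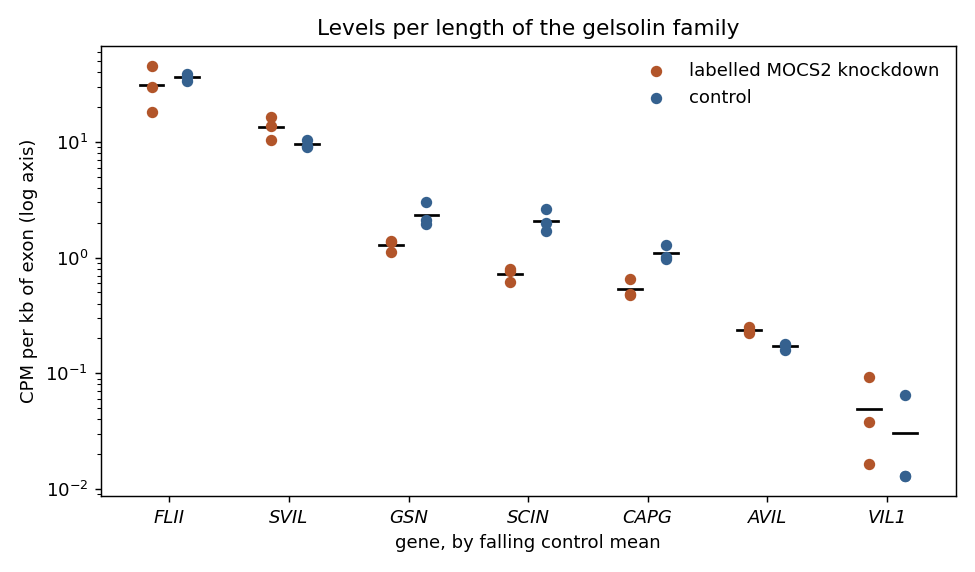
CPM per kb of exon on a log axis for each member, ordered by the control mean, with 1 point per library, knockdown left of control, and lines at group means. In every library FLII and SVIL lie above the other 5 members.

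The mix of members differed with the libraries. FLII made up 64.7%, 48.3% and 77.3% of the family's summed CPM per kb in knockdown replicates 1, 2 and 3, against 73.1%, 68.9% and 68.8% in the controls. SVIL made up 29.9%, 43.4% and 17.7% in the knockdown libraries and 17.2%, 19.0% and 19.5% in the controls, so both shares overlapped between the groups. SCIN made up 1.34%, 2.12% and 1.31% in the knockdown libraries, against 3.75%, 5.36% and 3.19% in the controls. This separation follows from the selection of SCIN. The shares of GSN and CAPG were also lower in knockdown libraries without overlap, and that of AVIL was higher without overlap. The share of VIL1 overlapped. Divided by the longest transcript, the GSN shares overlapped too, at 4.44% in knockdown 2 and 4.38% in control 1.

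Ratios between members within a library do not depend on its scaling. On the CPM per kb scale, SVIL over GSN was 12.3, 12.1 and 7.43 in the knockdown libraries, against 4.64, 4.36 and 3.44 in the controls, a separation that follows from the values of both genes given above. SCIN over GSN was 0.55, 0.59 and 0.549 in the knockdown libraries, against 1.01, 1.23 and 0.564 in the controls. Control 3 lay inside the knockdown range and the other 2 controls lay above it.

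Genes that overlap the members were examined because no source used here says whether reads were counted by strand. CAPG has none, and the 2 annotated genes that overlap SCIN had 0 reads in every library. RAB14, a vesicle-traffic GTPase that overlaps the 5′ part of GSN on the opposite strand, had 60.4 ± 6.21 CPM in knockdown and 60.6 ± 4.48 CPM in control libraries (SD, n = 3 each), with a log2 fold change of -0.01. For AVIL the overlap matters more, because TSFM on the opposite strand had 30.1 ± 3.07 CPM in knockdown and 32.2 ± 1.22 CPM in control libraries, far above the AVIL means of 1.39 CPM in knockdown and 1.01 CPM in control libraries. AC025165.5, a long noncoding RNA within AVIL, averaged 1.83 ± 0.99 CPM in knockdown and 0.576 ± 0.325 CPM in control libraries (adjusted p = 0.145, edgeR). Its knockdown values all lay above the controls, as did those of 12.5% of all tested genes. With these overlapping genes, the AVIL counts are uncertain. SVIL-AS1 shares 30408 bases with SVIL and had a log2 fold change of 0.28 (adjusted p = 0.420, edgeR), and the pseudogene copy SVIL2P one of 0.11 (adjusted p = 0.865, edgeR). LLGL1, a cell polarity gene that shares 40 bases with FLII, averaged 55.8 ± 14.5 CPM in knockdown and 78.0 ± 5.70 CPM in control libraries (adjusted p = 0.197, edgeR). USP37, a deubiquitinase that overlaps VIL1, averaged 135.3 ± 22.0 CPM in knockdown and 105.5 ± 8.05 CPM in control libraries, so the few VIL1 reads cannot be assigned with certainty.

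Neighbours of SCIN on chromosome 7, with a start within 1 Mb of it, were described from the same fit. VWDE averaged 17.4 ± 2.77 CPM in knockdown and 23.8 ± 4.37 CPM in control libraries, a log2 fold change of -0.45 (adjusted p = 0.233, edgeR). TMEM106B, a lysosomal membrane protein gene, averaged 62.9 ± 8.54 CPM in knockdown and 85.5 ± 11.99 CPM in control libraries, a log2 fold change of -0.44 (adjusted p = 0.169, edgeR). Both had all knockdown libraries below all controls, as did 14.3% of all tested genes. THSD7A averaged 4.91 ± 4.67 CPM in knockdown and 3.83 ± 1.86 CPM in control libraries and overlapped between the groups. AC013470.2 was too low to test.

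The profile of SCIN over the 6 libraries was set beside 12478 protein-coding genes with a mean of at least 2 CPM. Likeness was the root mean square difference of log2 CPM centred on each gene's mean. The closest were TMEM266 (0.13), CR2, a complement receptor (0.16), APCDD1, an inhibitor of Wnt signalling (0.18), MAOA, a monoamine oxidase (0.19), and TMEM45B (0.21). MAOA, for example, had 6.22, 8.88 and 6.33 CPM in the knockdown libraries and 22.0, 28.6 and 13.9 CPM in the controls. As with SCIN, control 2 was its highest library and control 3 its lowest control. This likeness follows from choosing genes by it and is a description. Within the family the difference from SCIN was 0.40 for CAPG, 0.47 for GSN, 0.76 for FLII, 0.99 for AVIL and 1.04 for SVIL.

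The rest of the actin machinery was described with 8 gene lists that hold 110 genes other than the family, of which 100 were tested. None passed the adjusted threshold in the edgeR fit of all 6 libraries. Other settings did call some of them. DESeq2 on all 6 libraries, which called 6.27% of all tested genes, called 1 severing and disassembly gene higher and 2 lower. It also called 2 capping genes and 1 bundling gene lower. Without knockdown replicate 3, edgeR called 14.8% of all tested genes. Among other severing and disassembly genes it called 2 higher and 3 lower, and among capping genes 1 and 2. Among nucleation genes it called 1 and 2, and among cofilin kinases and phosphatases 1 and 1. It also called 2 higher among actin isoforms, and 1 lower each among monomer-binding and bundling genes. Without a filter on low counts, edgeR called 694 genes higher and 880 lower of 43251. In that fit 3 higher were called among actin isoforms, 1 higher and 4 lower among capping genes, and 1 lower each among severing and bundling genes. In the fit of all 6 libraries, 12 of the 100 (12%) were higher and 13 (13%) lower at an unadjusted p under 0.05. Over all tested genes these shares were 9.93% and 10.6%. The median log2 fold change of the 100 was -0.03, against 0.02 over all tested genes. The other actin genes together thus lay close to the background.

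Among 17 other severing and disassembly genes, 2 were higher and 2 lower at an unadjusted p under 0.05, with a median log2 fold change of -0.06. Over all tested genes 9.93% were higher and 10.6% lower. CFL1, the cofilin that severs older filaments, had 371.6, 375.8 and 378.0 CPM in the knockdown libraries, against 393.7, 373.3 and 436.0 CPM in the controls (adjusted p = 0.737, edgeR). CAP1, which helps cofilin recycle actin, averaged 311.2 ± 71.9 CPM in knockdown and 327.5 ± 19.2 CPM in control libraries (adjusted p = 0.852, edgeR). Both genes overlapped between the groups. CORO1B, a coronin chosen after its values were seen, averaged 24.4 ± 8.76 CPM in knockdown and 49.6 ± 4.99 CPM in control libraries, with a log2 fold change of -1.02 that missed the threshold (adjusted p = 0.0912, edgeR). The other 3 past that unadjusted threshold, likewise named after their values were seen, were MICAL1, INF2 and MICAL3, none overlapping between groups. Of the 17 genes, 3 had all knockdown libraries above all controls and 2 below, against 12.5% and 14.3% of all tested genes. MICAL1, which oxidises actin, averaged 11.8 ± 1.44 CPM in knockdown and 18.8 ± 1.39 CPM in control libraries (adjusted p = 0.106, edgeR). The formin INF2 averaged 25.5 ± 4.85 CPM in knockdown and 16.3 ± 1.29 CPM in control libraries, and MICAL3 77.1 ± 11.5 CPM in knockdown and 54.1 ± 2.56 CPM in control libraries (adjusted p = 0.112 and 0.120, edgeR).

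The cofilin kinases and phosphatases had 1 of 13 genes on each side at an unadjusted p under 0.05 and a median of -0.05. ROCK2, a kinase upstream of cofilin, averaged 199.4 ± 34.0 CPM in knockdown and 166.9 ± 16.8 CPM in control libraries (adjusted p = 0.410, edgeR), and its relative ROCK1 averaged 144.3 ± 3.47 CPM in knockdown and 155.7 ± 12.3 CPM in control libraries. The other capping genes had 3 higher and 4 lower of 17 tested, with a median of -0.08. Over all tested genes 9.93% were higher and 10.6% lower. The higher capping genes, named after their values were seen, were EPS8L1, TMOD3 and CARMIL2. Likewise named, the lower ones were LMOD1, EPS8L2, CARMIL1 and ADD3. The most abundant capping genes were CD2AP and the capping protein subunit CAPZA1, which averaged 228.8 ± 62.5 CPM in knockdown and 232.4 ± 2.31 CPM in control libraries. Of 6 monomer-binding genes, 1 was lower, with a median of -0.19. PFN1, profilin, which feeds actin to growing ends, had 453.4, 372.7 and 673.5 CPM in knockdown replicates 1, 2 and 3, against 672.0, 594.1 and 669.5 CPM in the controls (adjusted p = 0.352, edgeR). Its highest value was in knockdown 3, as for FLII, and its lowest in knockdown 2.

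The 31 nucleation and elongation genes had 3 higher and 4 lower at an unadjusted p under 0.05 and a median of 0.01. Over all tested genes 9.93% were higher and 10.6% lower. ENAH, which lengthens filaments at barbed ends, averaged 659.8 ± 148.0 CPM in knockdown and 499.9 ± 12.9 CPM in control libraries (adjusted p = 0.249, edgeR), and the Arp2/3 subunit ACTR2 averaged 306.9 ± 67.1 CPM in knockdown and 299.6 ± 17.2 CPM in control libraries. Of 15 bundling and microvillus genes, 8 were tested and 1 was lower, with a median of -0.03. That gene was FSCN1, fascin, named after its values were seen, at 67.6 ± 10.9 CPM in knockdown and 106.3 ± 7.68 CPM in control libraries (adjusted p = 0.0971, edgeR). The 4 FLII partners had none on either side and a median of 0.21. LRRFIP1, which binds the leucine-rich repeats of FLII, averaged 117.8 ± 6.30 CPM in knockdown and 103.8 ± 5.35 CPM in control libraries (adjusted p = 0.467, edgeR).

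The 4 tested of 6 actin genes had positive log2 fold changes, and none passed the adjusted threshold. At an unadjusted p under 0.05, 3 of the 4 were higher, where 9.93% of all tested genes were, and the median log2 fold change was 0.76. ACTA2 adds to that median with a log2 fold change of 1.00, although its values of 14.1, 66.8 and 11.03 CPM in knockdown replicates 1, 2 and 3, against 13.03, 14.7 and 18.2 CPM in the controls, lie above the control range in knockdown 2 alone. ACTA1, skeletal muscle actin named after its values were seen, averaged 3.13 ± 0.70 CPM in knockdown and 1.63 ± 0.44 CPM in control libraries, without overlap (adjusted p = 0.149, edgeR). Over all tested genes, 12.5% had all knockdown libraries above all controls. ACTB had 3961.5, 2763.7 and 2504.8 CPM in knockdown replicates 1, 2 and 3, against 2250.7, 2146.3 and 2240.3 CPM in the controls. Its groups did not overlap, but knockdown 1 stood far above the other libraries. ACTG1 had 4409.8, 2813.9 and 1994.4 CPM in the knockdown libraries and 2185.9, 2040.2 and 1944.3 CPM in the controls, which overlapped. The adjusted p was 0.221 for ACTB and 0.240 for ACTG1 (edgeR), so neither passed.

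**Figure D4:**
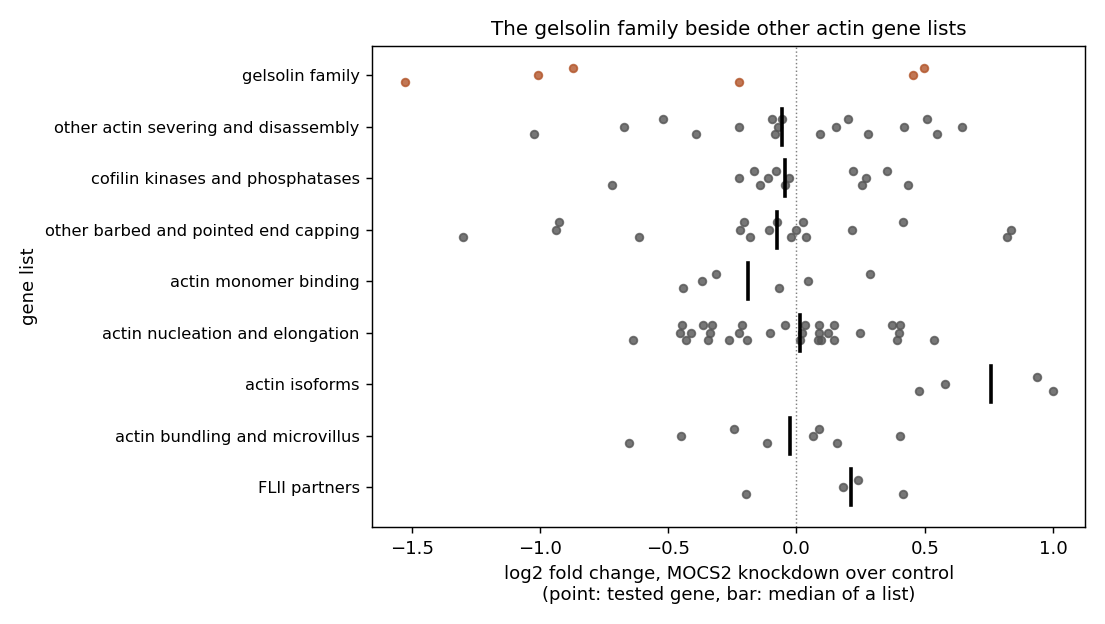
Log2 fold change (horizontal axis, knockdown over control) of each tested gene in the gelsolin family and in 8 lists of other actin genes, with a bar at the median of each list. SCIN at -1.53 is the lowest point, the medians of 6 lists lie between -0.19 and 0.01, and the 4 actin genes lie between 0.48 and 1.00.

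Markers of cell types known for family members were examined as summed CPM. Of 12 macrophage and leukocyte markers, the cells in which CAPG is abundant, 5 were tested, and the sum was 7.12 to 11.4 CPM in the knockdown libraries and 4.94 to 7.55 CPM in the controls. Of 10 intestinal markers 2 were tested, with sums of 5.54 to 7.65 CPM in knockdown and 5.13 to 7.78 CPM in control libraries, mostly CDX2, and TFF3 was at 0 reads throughout. The 10 include VIL1 itself, which averaged 0.338 CPM in knockdown and 0.211 CPM in control libraries. Of 10 chromaffin and megakaryocyte markers 4 were tested, with sums of 8.92 to 20.3 CPM in knockdown and 7.23 to 12.6 CPM in control libraries. TH, PPBP and GP9 were at 0 reads in all 6 libraries, but other markers of this list were present. At an unadjusted p under 0.05, 2 of the 4 tested were higher and 1 lower. Over all tested genes 9.93% were higher and 10.6% lower. The granule proteins CHGB and CHGA averaged 6.71 ± 4.24 and 5.21 ± 1.93 CPM in knockdown libraries, against 2.62 ± 0.81 and 2.66 ± 1.51 CPM in controls, and both overlapped between the groups (adjusted p = 0.147 and 0.231, edgeR). ITGA2B, a platelet integrin named after its values were seen, averaged 1.57 ± 0.74 CPM in knockdown and 3.78 ± 0.24 CPM in control libraries, without overlap (adjusted p = 0.111, edgeR). Over all tested genes, 14.3% had all knockdown libraries below all controls and 12.5% above. Of 12 muscle markers 7 were tested, with sums of 43.6 to 113.8 CPM in knockdown and 36.0 to 49.5 CPM in control libraries. Of the 7, 2 were higher and 2 lower at an unadjusted p under 0.05, against the same 9.93% and 10.6% of all tested genes. Those 4, named after their values were seen, went both ways. The actin-binding proteins TAGLN and CNN1 averaged 12.9 ± 5.71 and 2.80 ± 1.39 CPM in knockdown libraries, against 2.97 ± 0.66 and 1.20 ± 0.26 CPM in controls. DES, desmin, averaged 0.435 ± 0.149 CPM in knockdown and 1.49 ± 0.59 CPM in control libraries, and LMOD1, leiomodin, 1.53 ± 0.70 CPM in knockdown and 3.80 ± 1.19 CPM in control libraries. Of these 4, CNN1 overlapped between the groups, and none passed (adjusted p from 0.0635 for TAGLN to 0.153 for CNN1, edgeR). ACTA2, smooth muscle actin, among the most abundant of the list, stood at 66.8 CPM in knockdown 2, against 11.03 to 18.2 CPM in the other 5 libraries. SVIL was also highest in knockdown 2, and the part of this in the SVIL value was not tested.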

How the data were processed

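Total RNA of 6 HEK293 libraries was sequenced after ribosomal RNA removal with a stranded kit, per the labels' protocols. The authors deposited raw read counts per Ensembl gene, made with bcl2fastq 2.18, TopHat2 2.0.13 and HTSeq on hg38, per the submitters' processing notes. No source used here gives the HTSeq version, annotation release or strand setting. The 5 special HTSeq rows (reads outside genes, 21.5% to 37.5% of uniquely aligned reads, and ambiguous reads, 2.87% to 3.70%, among them) stayed out of library sizes and tests.

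Symbols and coordinates came from GENCODE 29 (GRCh38), which named 57055 of 60675 genes. The test was that of edgeR 4.0.16 under R 4.3.3 (TMM factors, filterByExpr, two-sided quasi-likelihood F test, Benjamini-Hochberg adjustment over 18267 genes, threshold 0.05), a fit first tested on simulated data. CPM values are TMM-scaled. Alternatives were DESeq2 1.42.0, limma 3.58.1 (voom), other factors and filters, a replicate block and leaving out each library. Named genes were MOCS2, the members, VILL, overlapping genes, neighbours of SCIN, the 5 profiles nearest to SCIN and the 2 most abundant genes of a list where none passed. The members, gene lists and tests were chosen with earlier results of these data known, and SCIN was picked on the same contrast. Protein sequences were not used here. 1 neighbour of SCIN is not reported here.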

Additional observations from a re-analysis of the deposited data

Results flagged for a closer look

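In knockdown replicate 2, the share of uniquely aligned reads that fell in no gene was 37.5%, against 22.3% and 21.5% in knockdown replicates 1 and 3 and 23.6% to 24.9% in the controls. These reads enter no comparison of genes. The same library had the lowest FLII value and the highest SVIL value of the 6. Without it the log2 fold change was 0.0412 for FLII and 0.32 for SVIL.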

How the results depend on the processing

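Counts of genes past the adjusted threshold varied widely between settings, with 0 higher and 0 lower in the edgeR fit of all 6 libraries. DESeq2 called 559 higher and 586 lower, edgeR without a filter on low counts 694 and 880, and limma voom 0 in all. Leaving out single libraries gave 0 to 1232 higher and 0 to 1583 lower, the upper ends without knockdown replicate 3. With a replicate block 6 genes were higher and 13 lower. Deviations from the group means correlated at 0.11, -0.17 and -0.12 between same-numbered libraries. These values do not show pairing, and so few correlations cannot exclude it.

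Of 24 list counts, 15 moved in at least 1 setting. Of the members other than SCIN, GSN, CAPG, AVIL and SVIL kept their direction in all 13 settings, and CAPG and AVIL passed the threshold in none of them. GSN passed in 3 settings, with a log2 fold change of -0.87 and an adjusted p of 0.00752 in DESeq2, -0.90 and 0.00327 without a filter, and -0.93 and 0.0187 without knockdown replicate 3, over a range of 0.00327 to 0.406. SVIL passed only without knockdown replicate 3, where 14.8% of all tested genes were called (0.65, range over single libraries 0.32 to 0.65). FLII reversed to 0.0412 without knockdown replicate 2, and ranged from -0.60 to 0.0412. GSN ranged from -0.99 to -0.67. The cause was not tested. The counts of AVIL, VIL1 and CAPG limit what can be seen in these genes at this depth.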
